A study of Mus musculus with 6 samples.

Results

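The genes described here are 9 transcription factors of microglia, Spi1, Irf8, Sall1, Mitf, Bhlhe40, Bhlhe41, Runx1, Ikzf1 and Mef2a. They are a fixed list of names, set with earlier results of these data known but by a rule that uses no measured value, and each matched 1 of the 32285 genes counted in every library. They were read in single nuclei of mouse cortex at an age of 7.5 months, sorted as negative for NeuN, a neuronal nuclear protein. All mice were 5xFAD, a line in which transgenes under the neuronal Thy1 promoter give amyloid plaques. There were 3 groups of 2 libraries, labelled replicates 2 and 3: 5xFAD mice with the P522R variant of phospholipase C-γ2 (5xFAD-P522R), 5xFAD mice with its M28L variant (5xFAD-M28L), and 5xFAD mice without either. Phospholipase C-γ2 is a signalling enzyme downstream of immune receptors, and in human genetics M28L goes with higher and P522R with lower risk of Alzheimer's disease. Nuclei of both sexes were mixed within each library, and the number of animals is not given in the sources used here. All groups carried the 5xFAD transgenes, so values are set against 5xFAD mice, not against healthy ones. Plaques were not measured in these data, and 5xFAD replicate 2 held few disease-associated-like female nuclei, as given below. No label says that the replicates are separate animals, and p-values then cover only the spread from library to library, which may be technical.

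Microglia and the macrophages of the brain's borders arise from yolk sac precursors and are kept in their identity by a small set of transcription factors. PU.1, encoded by Spi1, opens myeloid enhancers together with IRF8 and RUNX1, Ikaros (Ikzf1) is a zinc-finger factor of blood cells, and SALL1 and MEF2 factors are known for the homeostatic program of microglia. MITF and the related TFEB and TFE3 drive lysosomal genes, and BHLHE40 and BHLHE41 are repressors that bind E-boxes and act in macrophage proliferation and lipid handling. Around plaques, microglia turn from the homeostatic to the disease-associated state, in which homeostatic genes fall and lysosomal and lipid genes rise.

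Libraries held 9269 to 13783 barcodes and 53326947 to 72288942 UMIs (unique molecular identifiers, each counting 1 captured transcript). Between 20 and 71 barcodes were shared by any pair of libraries, at most 0.751% of the smaller one. Clusters were named from marker genes, with the 9 factors left out of the clustering, and each name carries "-like" since only markers support it. The 8403 microglia-like nuclei (928 to 1769 per library) and 264 border macrophage-like nuclei (29 to 91 per library) carry most of what follows. 1 library stood apart. In 5xFAD replicate 2, 3 of 474 female microglia-like nuclei (0.633%) were disease-associated-like, against 103 of 538 male nuclei (19.1%). In 5xFAD replicate 3 the shares were 41.0% in female and 34.2% in male nuclei. The contrasts below, except those in disease-associated-like nuclei, were refitted without 5xFAD replicate 2, and values that moved most are given both ways.

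On the GRCm38 assembly the genes lie at chr2:91082390-91115756 (Spi1, plus strand), chr8:120736358-120756694 (Irf8, plus), chr8:89027235-89044162 (Sall1, minus), chr6:97807052-98021349 (Mitf, plus), chr6:108660629-108666925 (Bhlhe40, plus), chr6:145858243-145865558 (Bhlhe41, minus), chr16:92601466-92826149 (Runx1, minus), chr11:11685003-11772926 (Ikzf1, plus) and chr7:67231163-67372858 (Mef2a, minus). RefSeq windows of 300 bases around annotated transcription starts, 250 before and 50 after, were at hand for 7 of the 9, with 14 windows in all. The 3 windows below belong to Mitf, Bhlhe41 and Mef2a, 3 of the 6 genes whose levels in the 3 other microglial states lay on one side of the homeostatic level in every library. They were picked after the values were seen, as windows that hold a motif match. They are written 5′ to 3′ along the gene's own strand of GRCm38.p6, with motif matches in capitals.
Mitf, chr6:97806808-97807107, plus strand: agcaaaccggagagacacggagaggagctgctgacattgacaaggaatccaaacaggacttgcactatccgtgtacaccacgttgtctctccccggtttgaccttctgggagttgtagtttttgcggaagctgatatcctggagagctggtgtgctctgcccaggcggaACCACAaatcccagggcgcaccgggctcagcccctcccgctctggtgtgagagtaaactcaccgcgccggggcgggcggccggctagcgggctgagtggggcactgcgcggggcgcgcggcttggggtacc
Bhlhe41, chr6:145865371-145865670, minus strand: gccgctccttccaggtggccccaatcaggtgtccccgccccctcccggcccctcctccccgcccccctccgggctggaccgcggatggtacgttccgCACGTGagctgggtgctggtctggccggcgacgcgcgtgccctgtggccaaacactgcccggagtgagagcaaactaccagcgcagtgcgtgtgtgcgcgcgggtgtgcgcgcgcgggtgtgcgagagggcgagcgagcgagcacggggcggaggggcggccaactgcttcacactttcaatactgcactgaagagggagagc
Mef2a, chr7:67372809-67373108, minus strand: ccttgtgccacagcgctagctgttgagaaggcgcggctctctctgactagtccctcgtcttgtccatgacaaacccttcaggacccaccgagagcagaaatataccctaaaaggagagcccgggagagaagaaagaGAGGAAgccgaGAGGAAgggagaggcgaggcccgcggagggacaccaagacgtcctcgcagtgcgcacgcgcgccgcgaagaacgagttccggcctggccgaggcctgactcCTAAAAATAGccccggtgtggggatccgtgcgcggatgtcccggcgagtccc

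The capitals mark a RUNX word (TGTGGT, read on the opposite strand) at position -81 from the start site in the Mitf window, an E-box (CACGTG) at -153 of the Bhlhe41 window, and in the Mef2a window 2 PU.1 core words (GAGGAA) at -114 and -103 and a MEF2 word (CTANNNNTAG) at -2. Both strands were searched, also for an M-box (CATGTG) and an IRF word (GAAANNGAAA), which gave no match in the 14 windows; no words overlapped in the windows printed. Of all 32851 RefSeq windows of this length, 16.76% hold the RUNX word, 7.15% the E-box, 28.28% the PU.1 core, 3.686% the MEF2 word, 14.15% the M-box and 3.443% the IRF word, so such matches are common and describe letters only.

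Across cell classes, 4 of the factors were close to silent outside the immune nuclei. Levels are given as CPM, the UMIs of a gene per 1000000 UMIs, of the nuclei of a class summed within a library, as mean ± SD over 6 libraries, and are not compared between genes. Spi1 stood at 207 ± 17.5 CPM in microglia-like nuclei and 196 ± 41.1 CPM in border macrophage-like nuclei, and at 2.66 CPM or less outside the immune classes. Irf8 had 473 ± 60.5 CPM in microglia-like nuclei and no more than 8.23 CPM outside the immune classes. Runx1 had 1314 ± 150 CPM in microglia-like nuclei and at most 25.9 CPM outside immune classes, and Ikzf1 1197 ± 174 CPM and at most 25.2 CPM. Traces of microglial markers, as free RNA gives, were of like size in the same classes. In pericyte or smooth muscle-like nuclei, where these 4 factors were highest outside the immune classes, they stood at 1.28% to 2.10% of their microglial level, and 12 microglial marker genes at 0.954% to 4.36% (median 2.30%). In oligodendrocyte-like nuclei the factors stood at 0.377% to 0.51% and the markers at 0.448% to 3.84% (median 0.883%).

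**Figure D1:**
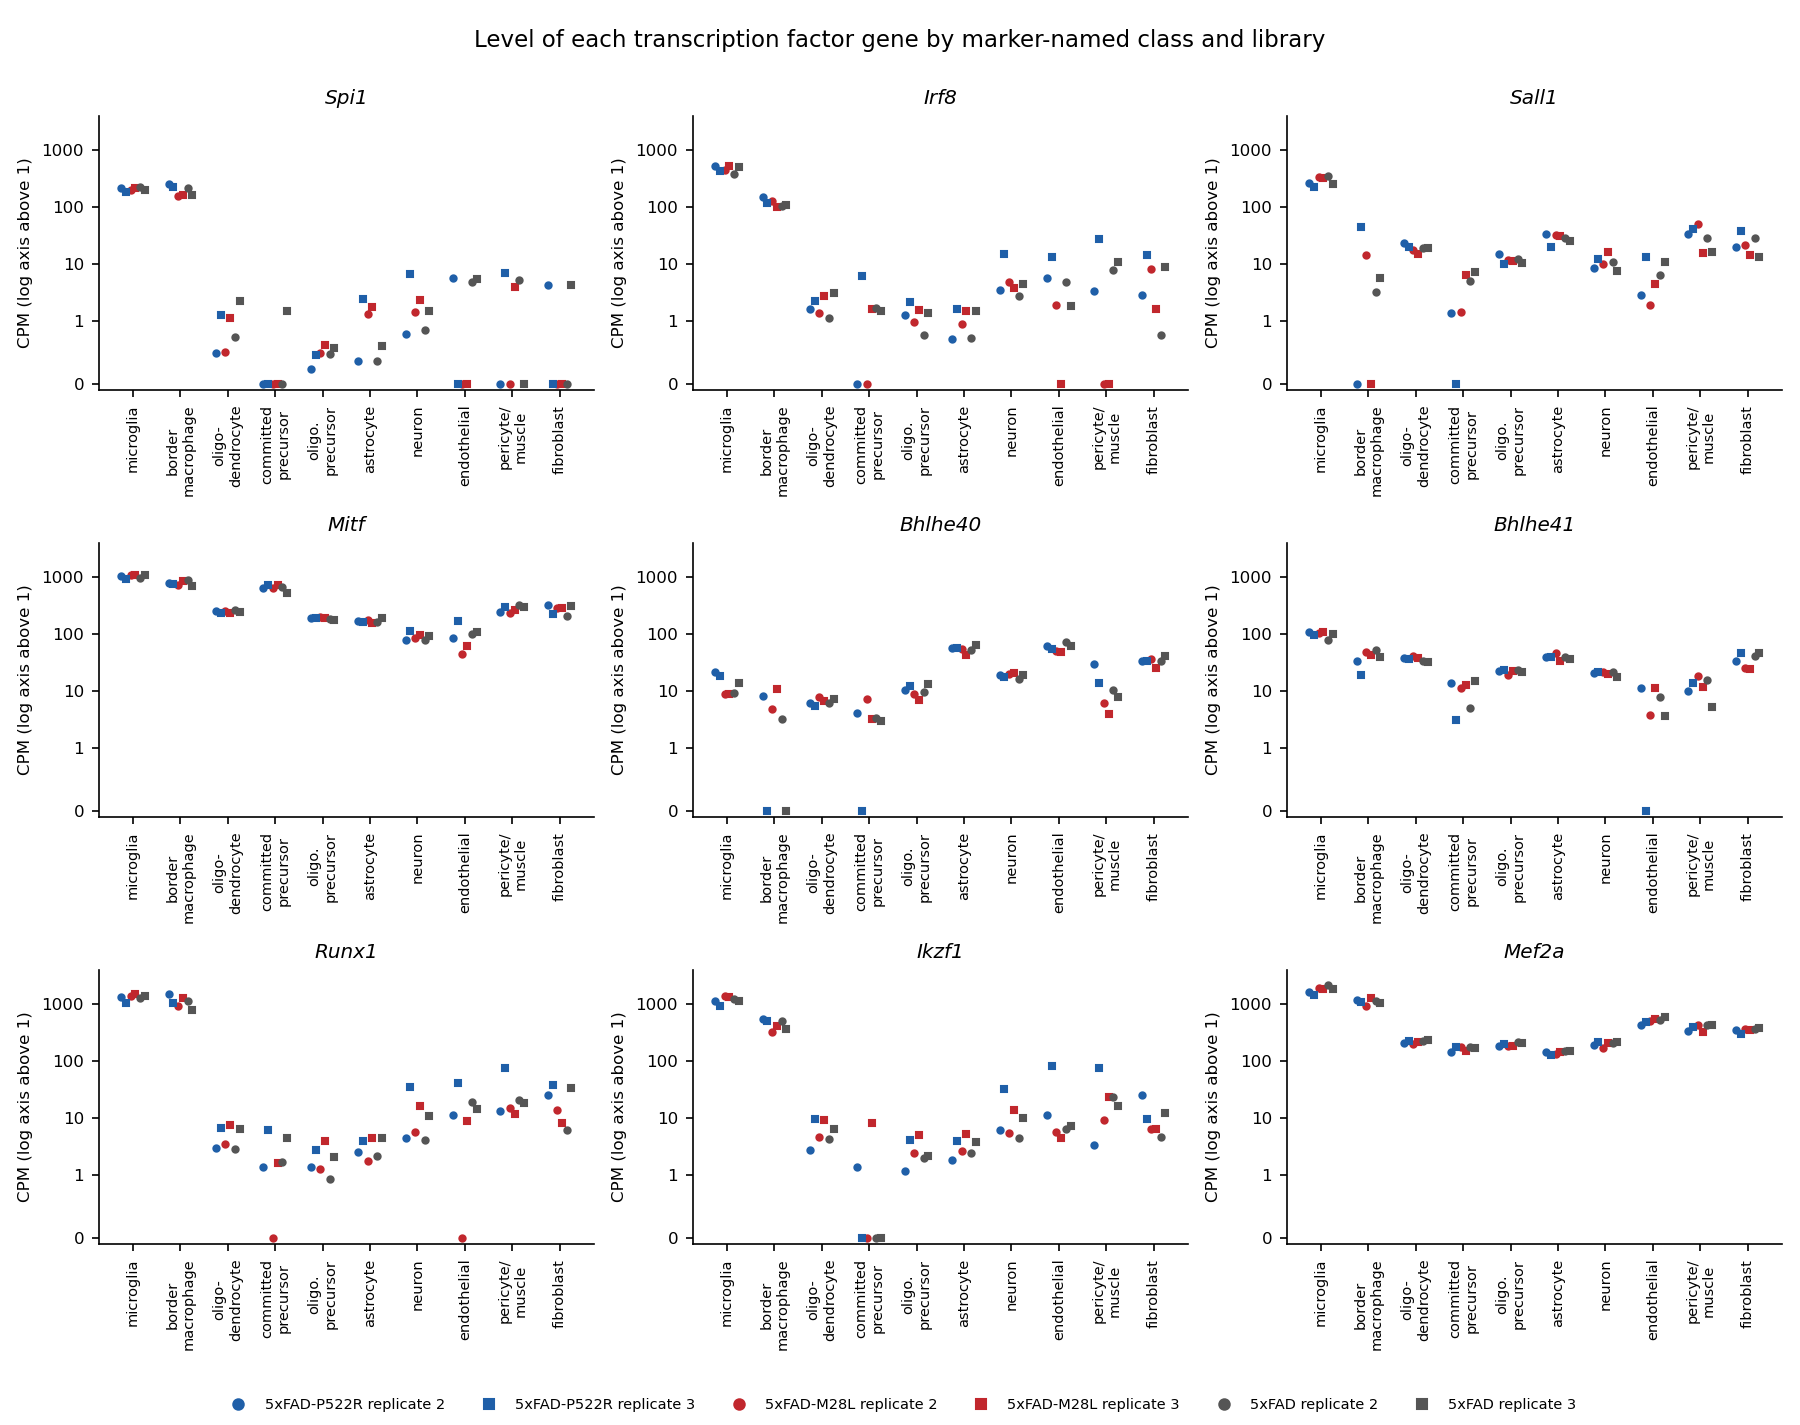
Levels of the 9 factors in CPM by cell class, with 1 point per library, on an axis that is logarithmic above 1 and linear below. Spi1, Irf8, Runx1 and Ikzf1 were highest in microglia-like and border macrophage-like nuclei, whereas Bhlhe40 was highest in endothelial-like (mean 58.0 CPM) and astrocyte-like nuclei (54.6 CPM).

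The other 5 were shared with non-immune cells to differing degrees. Sall1, which keeps up the homeostatic program, had 292 ± 53.4 CPM in microglia-like nuclei, and next came pericyte or smooth muscle-like nuclei with 30.9 ± 14.1 CPM and astrocyte-like nuclei with 28.4 ± 5.20 CPM. Mef2a had 1796 ± 253 CPM in microglia-like nuclei and 141 to 517 CPM as class means outside the immune classes, with the highest of these in endothelial-like nuclei. Mitf had 1026 ± 66.4 CPM in microglia-like nuclei, and committed oligodendrocyte precursor-like nuclei followed the macrophages with 655 ± 67.4 CPM. Oligodendrocyte-like nuclei held 248 ± 13.6 CPM of Mitf, 24.1% of its microglial level and above the range of the microglial markers there. Bhlhe41 had 98.31 ± 11.01 CPM in microglia-like nuclei and 38.8 ± 4.34 CPM in astrocyte-like nuclei.

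Bhlhe40 went against the common label of these genes. It had 13.3 ± 5.35 CPM in microglia-like nuclei, below endothelial-like (58.0 ± 8.34 CPM), astrocyte-like (54.6 ± 6.85 CPM), fibroblast-like (34.0 ± 5.13 CPM) and neuron-like nuclei (18.6 ± 1.69 CPM). The libraries of the first 3 of these did not overlap with those of the microglia-like nuclei, while neuron-like and microglia-like libraries did. It is therefore called microglial here by its function in other work, not by its level.

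Border macrophage-like nuclei, marked by Mrc1, F13a1, Cd163, Stab1 and Dab2, carried the same factors in a different balance. This comparison is a description, since the clusters themselves were drawn from expression. All 6 libraries lay on one side for 6 of the 9 factors, each lower in border macrophage-like than in microglia-like nuclei. Among all genes at 5 CPM or more the share was 24.1%, not matched to the factors' levels. Sall1 ranged from 0 to 44.1 CPM in border macrophage-like nuclei, from only 12 UMIs in 264 nuclei, and from 222 to 351 CPM in microglia-like nuclei. Irf8 ranged from 101 to 148 CPM in border macrophage-like nuclei, against 385 to 537 CPM in microglia-like nuclei, a median ratio of 0.276 within libraries. Ikzf1 ranged from 323 to 559 CPM, against 934 to 1401 CPM (median ratio 0.366). Bhlhe41 (18.9 to 51.5 CPM, against 78.0 to 107 CPM), Mef2a (925 to 1284, against 1432 to 2168) and Mitf (709 to 898, against 930 to 1079) were lower too. Their median ratios were 0.396, 0.64 and 0.779. For all 6 genes the ranges were apart. Spi1 (154 to 255 CPM, against 181 to 230) and Runx1 (777 to 1489, against 1048 to 1490) overlapped. Bhlhe40 rested on 5 UMIs and was not readable. Oligodendrocyte transcripts summed to 2731 to 10764 CPM in border macrophage-like and 1861 to 7156 CPM in microglia-like nuclei (10 genes, none at 0), and their part in these ratios was not tested.

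A pair of small immune groups fell below 20 nuclei in at least 1 library and are given pooled, with exact Poisson intervals that cover counting error only. In 49 T cell-like nuclei Ikzf1, which is needed for lymphocytes, had 1197 CPM (95% interval 1015 to 1401, 154 UMIs) and Runx1 761 CPM (618 to 928). Spi1 and Irf8 had 1 UMI each there, and Bhlhe41 none (upper bound 28.7 CPM). An unnamed sub-cluster of 97 nuclei led by Ccr2 and MHC class II genes had 313 CPM of Irf8 (260 to 374), 739 CPM of Ikzf1 (656 to 829) and 66.7 CPM of Sall1 (43.6 to 97.7). Each of these pooled levels, and that of Bhlhe41 (56.4 CPM), lay above the border macrophage range and below the microglia-like range of the same gene. Other factors did not lie between the classes. Mitf (998 CPM) and Mef2a (1913 CPM) were within the microglia-like range, and Runx1 (1457 CPM) within both ranges. Spi1 (259 CPM, 211 to 315) was above both, and Bhlhe40 rested on 3 UMIs.

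Over the 60 sums of a class and library (10 classes), the genes most like each factor were ranked by Pearson's r of log2(CPM + 1) among 15678 genes. These r describe differences between classes that share libraries and carry no test. Spi1 was most like Csf2rb, a cytokine receptor subunit (0.968), the complement receptor C3ar1 (0.966) and Cd300c2 (0.962). Runx1 was most like the growth factor receptor Csf1r (0.966), Ptprc (0.960) and Cd300a (0.959), and Ikzf1 most like Myo1f (0.973), Csf1r (0.970) and Ctss (0.964). Irf8 was nearest to Lrmp (0.963), Il10ra (0.962) and Ly86 (0.958), and Mef2a to Actr2 (0.952), Cebpg (0.951) and Cmklr1 (0.948). The other 4 had looser neighbours. Mitf was nearest to Scamp2 (0.877), Dnajc7 and Akap10, Bhlhe41 to Vps35l (0.814), Cxxc5 and Pecr, Bhlhe40 to Ccdc85a (0.808), Magi3 and Gm43260, and Sall1 to Asph (0.799), Gal3st4 and Olfr111. Among the factors themselves Runx1 and Ikzf1 were closest (0.958), and Bhlhe40 and Mitf ran most against each other (-0.59).

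Within microglia the factors split into those higher and those lower in the disease-associated-like state. Bhlhe40, Mitf, Bhlhe41, Irf8 and Runx1 were higher there than in homeostatic-like nuclei in 6 of 6 libraries, and Spi1, Sall1, Mef2a and Ikzf1 were lower in 6 of 6. For comparison, 29.3% of all genes at 5 CPM or more had all 6 libraries on one side. Such shares, here and for the other states, are not matched to the factors' levels, most of which were far above 5 CPM. They do not measure how unusual the factors are. States are clusters of the same nuclei, so these are descriptions with no test, although the 9 factors were not used to form them.

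Bhlhe40 differed most. Its lowest, median and highest levels over libraries were 19.0, 28.9 and 44.5 CPM in disease-associated-like nuclei, against 0.909, 2.28 and 4.82 CPM in homeostatic-like nuclei, where it rested on 34 UMIs in all and 1 to 12 per library. Pooled over libraries the ratio was 10.8 (95% counting interval 7.56 to 15.9). Mitf had 1315, 1408 and 1716 CPM, against 615, 747 and 786 CPM, a median ratio within libraries of 1.97. Every disease-associated-like library was thus above every homeostatic-like one for both genes. Bhlhe41 had 123, 133 and 152 CPM, against 61.7, 70.4 and 82.6 CPM, a ratio of 1.87. Irf8 had 576, 612 and 636 CPM, against 317, 375 and 426 CPM, a ratio of 1.57. For Runx1 the ratio was 1.17, and the ranges of 1305 to 1662 and 1080 to 1374 CPM overlapped.

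On the lower side, Spi1 had 144, 158 and 174 CPM in disease-associated-like nuclei, against 206, 257 and 306 CPM in homeostatic-like nuclei, a ratio of 0.589. Sall1 had 181, 226 and 258 CPM, against 339, 374 and 405 CPM (0.608). Mef2a had 1353, 1450 and 1592 CPM, against 2049, 2192 and 2536 CPM (0.669). None of these ranges overlapped. Ikzf1 had 924, 963 and 1201 CPM, against 1337, 1436 and 1538 CPM, a ratio of 0.7005 and again with no overlap. Of the myeloid lineage factors, Spi1 and Ikzf1 were thus lower in the state while their partners Irf8 and Runx1 were higher.

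**Figure D2:**
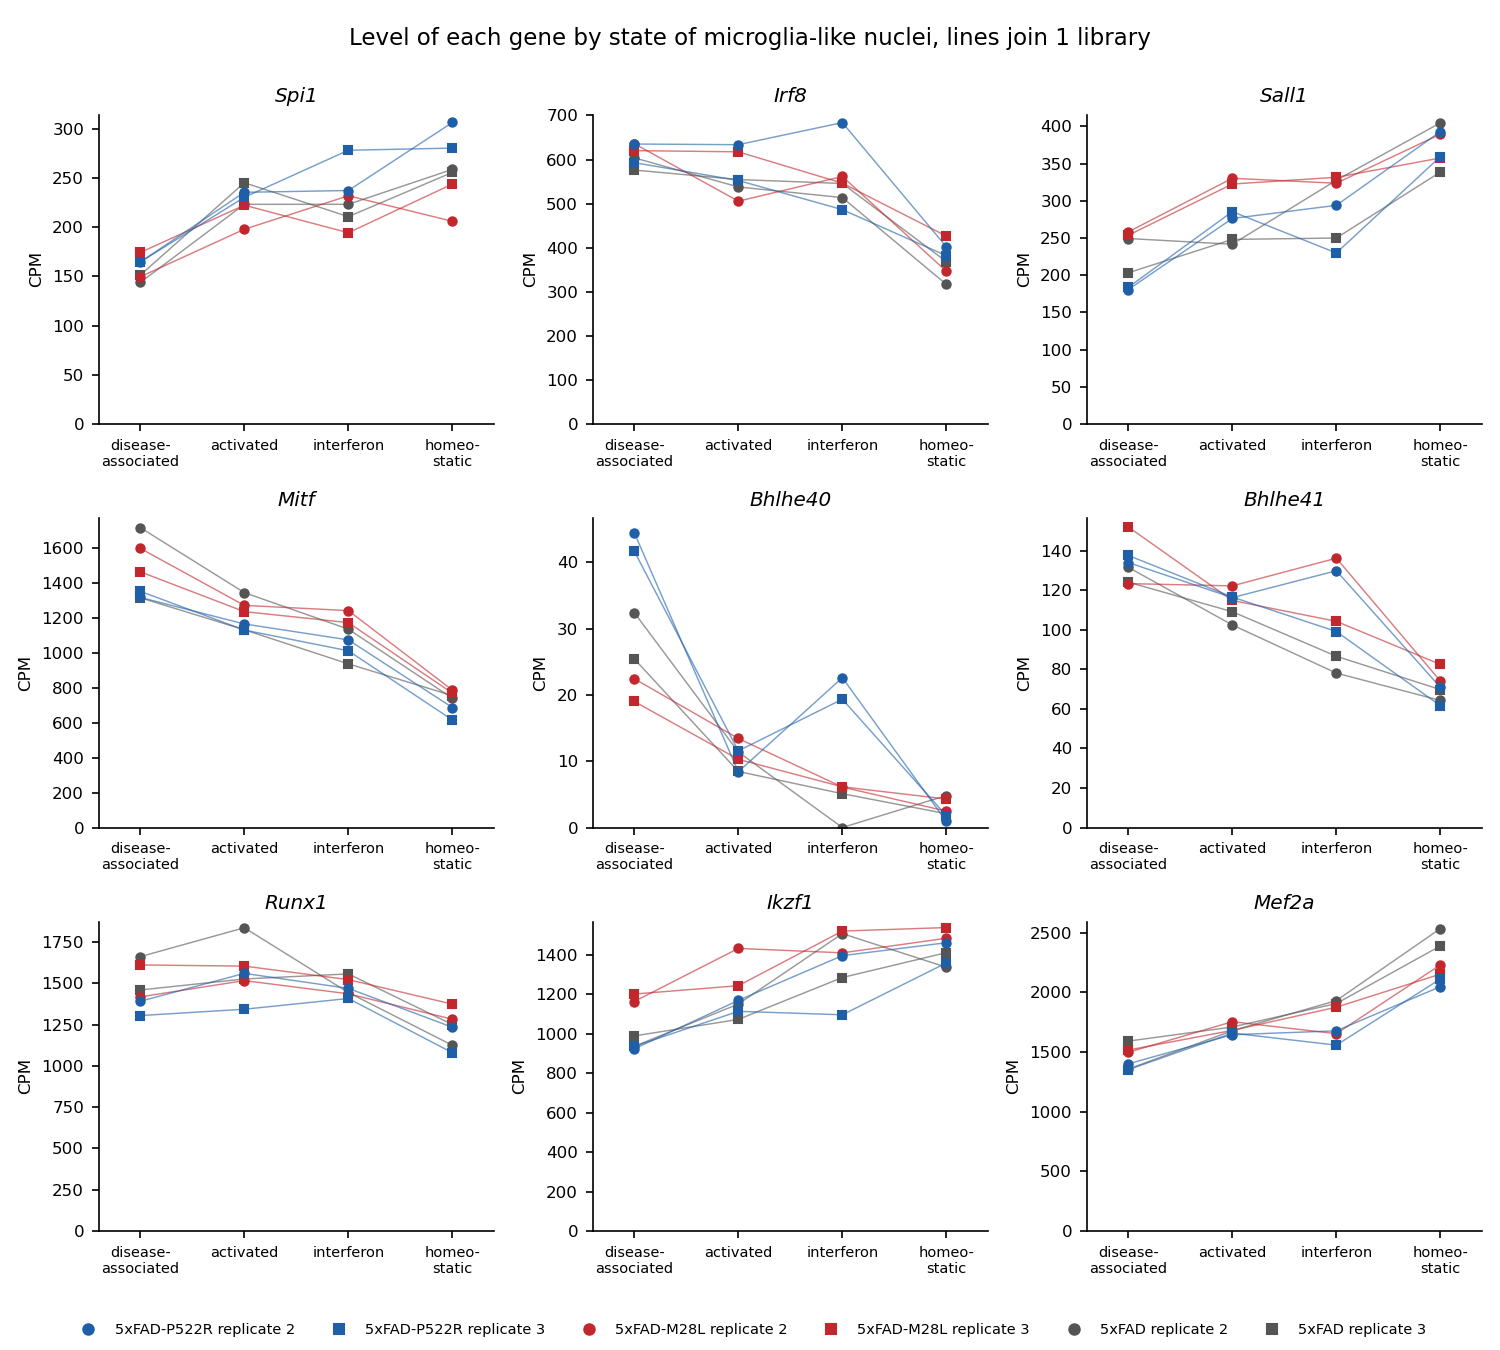
Levels of the 9 factors in CPM in disease-associated-like, activated-like, interferon-like and homeostatic-like nuclei, with 1 point per library and lines that join the points of a library. Mitf was higher and Mef2a and Sall1 were lower in each of the first 3 states than in homeostatic-like nuclei of the same library, and Bhlhe40 was farthest from its homeostatic-like level in the disease-associated-like state, at a median ratio of 10.6.

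The activated-like nuclei (with Ccl6, Ccl4, Il1b and Cd83 among their leading genes) and the interferon-like nuclei shared much of this split. The name activated-like is weak. It rests on 3 markers, a share of 0.375 of the activated list, of which the disease-associated-like cluster held a share of 0.625. In activated-like nuclei all 9 factors were on one side in 6 of 6 libraries, against 20% of all genes. Their median ratios were 4.75 for Bhlhe40, 1.66 for Mitf, 1.62 for Bhlhe41, 1.48 for Irf8 and 1.23 for Runx1. Those on the lower side were 0.763 for Sall1, 0.783 for Mef2a, 0.814 for Ikzf1 and 0.887 for Spi1. In interferon-like nuclei 6 of the 9 were on one side, against 14.6% of all genes. They were Irf8, itself an interferon-inducible factor (1.55), Mitf (1.55), Bhlhe41 (1.44), Runx1 (1.22), Mef2a (0.780) and Sall1 (0.779). Spi1 (0.844) and Ikzf1 (0.953) were lower in 5 of 6 libraries, and Bhlhe40 rested on 21 UMIs in the interferon-like nuclei. When the 9 factors were allowed into the clustering, 4 of them entered the variable genes of the clustering of all nuclei. How many entered those of the microglial clustering, which drew the states, is not given. All 27 median ratios kept their side. Some ratios moved by more than their SD over libraries. The states themselves changed, with 757 instead of 2083 disease-associated-like, 2749 instead of 1882 activated-like and 1107 instead of 649 interferon-like nuclei. Since the factors could help to draw these states, the kept sides cannot serve as support.

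The shares of these states differed between libraries and bear on every comparison of whole microglia. Disease-associated-like nuclei made up 37.7% and 32.8% of microglia-like nuclei in 5xFAD-P522R, 10.1% and 14.3% in 5xFAD-M28L, and 11.9% and 37.9% in 5xFAD (replicates 2 and 3). Homeostatic-like nuclei made up 30.5% and 26.1%, 44.8% and 42.5%, and 67.3% and 28.3%. A cluster of 489 nuclei led by oligodendrocyte transcripts, with a median of 7471 UMIs, made up 17.8% of microglia-like nuclei in 5xFAD-P522R replicate 3 and 1.32% to 5.28% elsewhere. Oligodendrocyte transcripts in microglia-like nuclei summed to 3143 and 7156 CPM in 5xFAD-P522R, 1861 and 2030 CPM in 5xFAD-M28L, and 2173 and 2172 CPM in 5xFAD. Astrocyte transcripts (10 genes, none at 0) summed to 837 and 737 CPM, 1171 and 1222 CPM, and 1197 and 1124 CPM. The contrasts were refitted without the oligodendrocyte-led cluster, which called no factor; the part of the astrocyte transcripts and of the state shares was not tested.

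Between genotypes no factor passed the test in whole microglia-like nuclei. The edgeR quasi-likelihood test with Benjamini-Hochberg adjustment called 0 of the 9 factors and 0 of 13813 genes (0%) in each of the 3 contrasts. At an unadjusted p under 0.05 it had 1861 genes for P522R against M28L, 1601 for P522R against 5xFAD and 675 for M28L against 5xFAD, and DESeq2 called 232, 78 and 4 genes, none of them a factor. The counts hung on the setting and on 1 library: without 5xFAD-P522R replicate 2 edgeR called 643 genes for P522R against M28L and 578 for P522R against 5xFAD, and without a filter on low counts 1166, 1140 and 117 genes, among them 4, 1 and 0 factors. Levels in the following are TMM-normalized CPM, with replicate 2 before replicate 3.

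Bhlhe40 had 20.5 and 18.8 CPM in 5xFAD-P522R, 8.69 and 9.07 CPM in 5xFAD-M28L, and 9.06 and 13.7 CPM in 5xFAD. The P522R libraries were the highest of the 6. Its log2 difference was 1.14 (SE 0.239, adjusted p 0.193) for P522R against M28L, 0.75 (SE 0.230, adjusted p 0.329) for P522R against 5xFAD and -0.39 (SE 0.247, adjusted p 0.908) for M28L against 5xFAD, none of which passed. Without 5xFAD replicate 2 the value for P522R against 5xFAD was 0.51 and that for M28L against 5xFAD -0.62. Without 5xFAD replicate 3 they were 1.10 and -0.03.

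Ikzf1, Mef2a and Sall1 had their lowest mean in 5xFAD-P522R, as did Spi1, Mitf and Runx1. Of these genes, Mitf and Runx1 were higher and the others lower in disease-associated-like than in homeostatic-like nuclei. Ikzf1 had 1086 and 968 CPM in 5xFAD-P522R, 1408 and 1398 CPM in 5xFAD-M28L, and 1229 and 1115 CPM in 5xFAD. The M28L libraries were the highest, and the P522R libraries were the lowest. The log2 difference was -0.45 for P522R against M28L (SE 0.098, adjusted p 0.193), and with 5xFAD-P522R replicate 2 left out it was -0.54 with an adjusted p of 0.0497. That fit has 1 P522R library, the one with most oligodendrocyte-led nuclei, and assumes that it varies like the libraries of the other groups. Mef2a had 1566 and 1483 CPM in 5xFAD-P522R, 1912 and 1881 CPM in 5xFAD-M28L, and 2148 and 1811 CPM in 5xFAD. The P522R libraries were the lowest 2, with differences of -0.32 against M28L (SE 0.104, adjusted p 0.270) and -0.38 against 5xFAD (SE 0.104, adjusted p 0.328). The value against 5xFAD was -0.25 without 5xFAD replicate 2. Sall1 had 259 and 230 CPM in 5xFAD-P522R, 344 and 330 CPM in 5xFAD-M28L, and 348 and 248 CPM in 5xFAD. The P522R libraries were below the M28L libraries, with a difference of -0.46 (SE 0.159, adjusted p 0.281), and in 5xFAD replicate 2 was near the M28L level and replicate 3 near the P522R level.

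**Figure D3:**
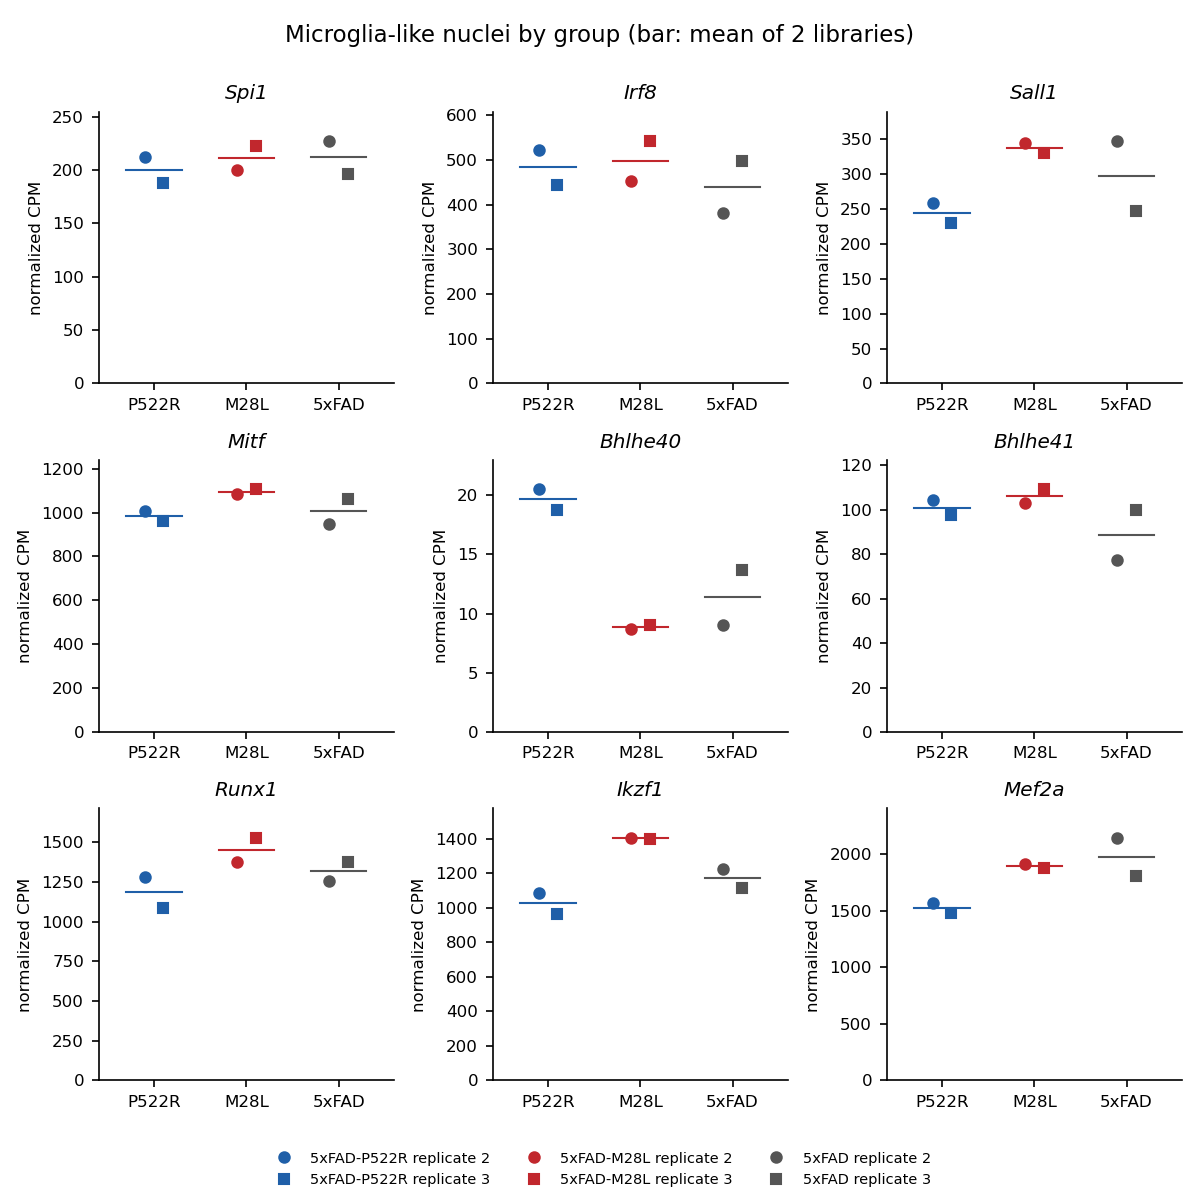
TMM-normalized CPM of the 9 factors in microglia-like nuclei by group, with 1 point per library and a bar at the mean of 2. Bhlhe40 was highest in both P522R libraries (20.5 and 18.8 CPM) and Ikzf1 highest in both M28L libraries (1408 and 1398 CPM), while Spi1 and Irf8 overlapped between all groups.

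The remaining 5 differed less. Runx1 had 1280 and 1086 CPM in 5xFAD-P522R, 1376 and 1529 CPM in 5xFAD-M28L, and 1256 and 1376 CPM in 5xFAD, with a difference of -0.30 for P522R against M28L (SE 0.113, adjusted p 0.323). Mitf had 1009 and 963 CPM in 5xFAD-P522R, 1084 and 1107 CPM in 5xFAD-M28L, and 949 and 1064 CPM in 5xFAD, and the M28L libraries were the highest 2 by a small margin (-0.15 for P522R against M28L, adjusted p 0.544). For Runx1, too, the P522R libraries were below the M28L libraries. Spi1 ranged from 188 to 228 CPM over the 6 libraries and Bhlhe41 from 77.3 to 109 CPM. Irf8 had 522.5 and 445 CPM in 5xFAD-P522R, 454 and 543 CPM in 5xFAD-M28L, and 382 and 497 CPM in 5xFAD. For Spi1 and Irf8 all groups overlapped, and for Bhlhe41 the M28L libraries lay just above those of 5xFAD while P522R overlapped with both. Over the 9 factors the median difference was -0.15 for P522R against M28L, with 8 of 9 below 0, against a median of 0.0015 over all genes. Without the oligodendrocyte-led cluster 5 of 9 were below 0, with Spi1 at 0.061, Irf8 at 0.077 and Bhlhe41 at 0.015.

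Disease-associated-like nuclei taken alone, an alternative added after the data were seen, gave a like picture. The quasi-likelihood test called 0 factors in each contrast, against 0.849% of 10131 genes for P522R against M28L, 0.109% for P522R against 5xFAD and 0.888% for M28L against 5xFAD. At an unadjusted p under 0.05 it had 1004, 596 and 1069 genes. Bhlhe40 had 44.3 and 42.3 CPM in 5xFAD-P522R, 22.9 and 19.5 CPM in 5xFAD-M28L, and 33.4 and 25.7 CPM in 5xFAD, and differed by 1.05 between P522R and M28L (SE 0.303, adjusted p 0.0958). Sall1 had 179.9 and 186 CPM in 5xFAD-P522R, 263 and 260.2 CPM in 5xFAD-M28L, and 257 and 205 CPM in 5xFAD, and differed by -0.51 (SE 0.136, adjusted p 0.0590). Ikzf1 had 919.6 and 949 CPM in 5xFAD-P522R, 1186.5 and 1233 CPM in 5xFAD-M28L, and 965 and 1000 CPM in 5xFAD, and differed by -0.37 (SE 0.106, adjusted p 0.0884). For these 3 genes the P522R libraries did not overlap with the M28L libraries within the state either, at differences close to those in whole microglia. Mef2a differed by -0.16, Mitf by -0.22 and Runx1 by -0.20.

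Homeostatic-like nuclei alone gave another order. The test called 0 of the 8 factors that passed the filter on low counts (Bhlhe40 did not), against 0.0349% of 11473 genes for P522R against M28L, 0.0523% for P522R against 5xFAD and 0.00872% for M28L against 5xFAD. Unadjusted p-values under 0.05 numbered 655, 1082 and 739, and DESeq2 called 5, 13 and 2 genes and no factor. With 1 library left out the edgeR counts of genes ran from 0 (without 5xFAD-P522R replicate 2) to 16 (without 5xFAD replicate 2) for P522R against M28L, from 0 (without 5xFAD-P522R replicate 2) to 149 (without 5xFAD replicate 3) for P522R against 5xFAD, and from 1 to 52 (without 5xFAD replicate 3) for M28L against 5xFAD, with no factor called. Spi1 had 304 and 282 CPM in 5xFAD-P522R, 209.95 and 249.1 CPM in 5xFAD-M28L, and 260 and 258 CPM in 5xFAD. The P522R libraries were the highest 2, with a difference of 0.35 against M28L (SE 0.110, adjusted p 0.739). Mitf had 682 and 619 CPM in 5xFAD-P522R, 801 and 785 CPM in 5xFAD-M28L, and 744 and 761 CPM in 5xFAD, and the P522R libraries were the lowest 2 (-0.29 against M28L, SE 0.084, adjusted p 0.696). Mef2a had 2035 and 2124 CPM in 5xFAD-P522R, 2273 and 2200 CPM in 5xFAD-M28L, and 2551 and 2410 CPM in 5xFAD, a difference of -0.25 for P522R against 5xFAD (SE 0.071, adjusted p 0.322). This difference of Mef2a was called with a replicate block and without a filter on low counts, as given below. Sall1 differed by -0.02 between P522R and M28L there (SE 0.107), against -0.46 in whole microglia.

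**Figure D4:**
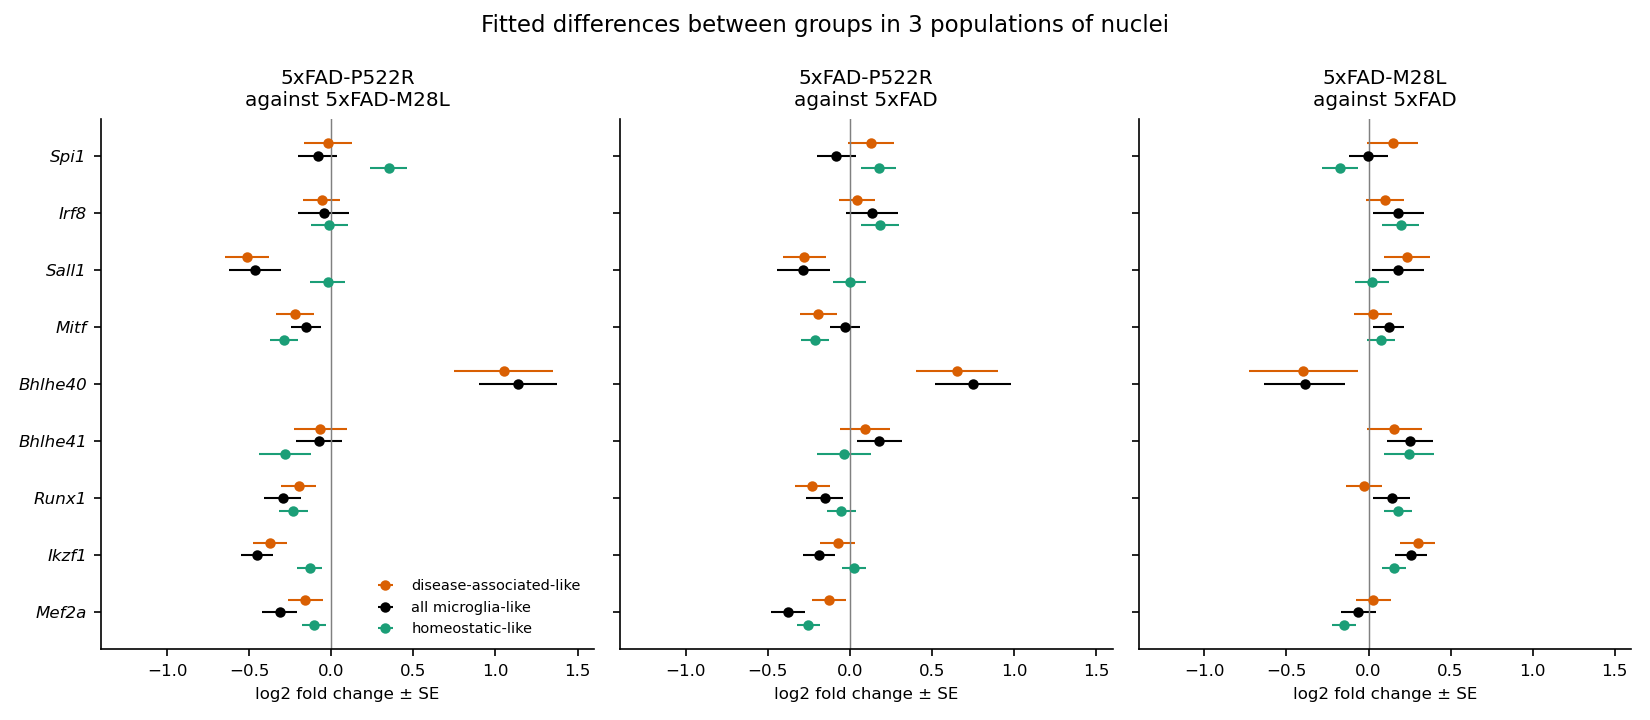
Log2 differences of the factors with their standard errors for the 3 contrasts, in disease-associated-like, all microglia-like and homeostatic-like nuclei (Bhlhe40 has no value in the last). For P522R against M28L, Bhlhe40 stood at 1.05 in disease-associated-like and 1.14 in all microglia-like nuclei, and Sall1 at -0.51 and -0.46 there but at -0.02 in homeostatic-like nuclei; no value passed the adjusted threshold of 0.05.

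In border macrophage-like nuclei 6 factors passed the filter (Sall1, Bhlhe40 and Bhlhe41 did not), and edgeR called 0 of them and 0 of 4381 genes (0%) in each contrast. Unadjusted p-values under 0.05 numbered 140 for P522R against M28L, 126 for P522R against 5xFAD and 128 for M28L against 5xFAD, and DESeq2 called 0 genes. Spi1 averaged 272 ± 16.1 CPM in 5xFAD-P522R, 185 ± 11.8 CPM in 5xFAD-M28L and 220 ± 38.2 CPM in 5xFAD (SD, n = 2 each), a difference of 0.56 for P522R against M28L (SE 0.288, edgeR adjusted p 1.00). These sums rest on 29 to 91 nuclei per library.

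Nuclei could be sexed by Xist against Y-linked transcripts, which allowed the variants to be compared within each sex. Female nuclei were 75.3% and 71.2% of sexed microglia-like nuclei in 5xFAD-P522R, 48.2% and 62.1% in 5xFAD-M28L, and 46.8% and 69.4% in 5xFAD. Female against male, edgeR called 0 of the 9 factors and 0.0586% of 11944 genes, with 697 genes at an unadjusted p under 0.05 and 7 genes called by each of edgeR and DESeq2. Without 5xFAD replicate 2 edgeR called 234 genes and again no factor. For the difference of a variant's effect between sexes, it called 1 factor in M28L against 5xFAD, against 0.871% of genes, and none in P522R against M28L (0.0502% of genes, 825 at an unadjusted p under 0.05, and 1 gene by DESeq2) or P522R against 5xFAD (0%; 1190 genes at an unadjusted p under 0.05, and 1 gene by DESeq2). The count of genes for M28L against 5xFAD was 104, and it ran from 0 without either 5xFAD-M28L library to 1143 without 5xFAD replicate 3. For P522R against 5xFAD it ran from 0 to 890 and for P522R against M28L from 0 to 179, both highest without a 5xFAD library. Over the 3 contrasts the calls of factors ran from 0, with any 1 library of 5xFAD-M28L or 5xFAD-P522R left out, to 9 without 5xFAD replicate 3.

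The factor was Irf8. It had 619 and 612 CPM in female and 355 and 467 CPM in male nuclei of 5xFAD-M28L, against 289 and 492 CPM in female and 444 and 534 CPM in male nuclei of 5xFAD. In both M28L libraries the female value was the higher, and in both 5xFAD libraries the male one. The difference of log2 differences was 0.95 (SE 0.203, edgeR adjusted p 0.0383). DESeq2 gave 0.94 with an adjusted p of 0.189. Without 5xFAD replicate 2, whose female nuclei were nearly all homeostatic-like, it was 0.69 (adjusted p 0.0247), and without 5xFAD replicate 3 it was 1.19 (adjusted p 5.41e-06). Each fit without a library leaves 1 in its group, assumed to vary like the others, and the second leaves as 5xFAD only the library that stood apart. Without 5xFAD-M28L replicate 2 or 3 it was 0.74 and 1.15 (adjusted p 0.536 and 0.132), and without 5xFAD-P522R replicate 2 or 3, which leaves the compared libraries as they are, 0.94 and 0.95 (adjusted p 0.164 and 0.136). The share of interferon-like nuclei, in which Irf8 was higher, differed between the sexes in the same direction as Irf8 in 6 of 6 libraries. It was 21.6% of female and 4.57% of male nuclei in 5xFAD-M28L replicate 2, against 1.48% and 10.2% in 5xFAD replicate 2. The disease-associated-like share, 12.7% and 20.7% of female and 8.9% and 7.95% of male nuclei in 5xFAD-M28L, did so in 4 of 6, the exceptions being 5xFAD replicate 3 and 5xFAD-P522R replicate 2. The activated-like share, a state in which Irf8 was also higher, went with Irf8 in replicate 2 of each group and against it in replicate 3. In replicate 3 it was 31.1% of female and 34.9% of male nuclei in 5xFAD-M28L, 23.5% and 21.6% in 5xFAD, and 16.4% and 21.4% in 5xFAD-P522R. The part of these shares in the difference was not tested. In 5xFAD-P522R, Irf8 had 516 and 490 CPM in female and 537 and 454 CPM in male nuclei.

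**Figure D5:**
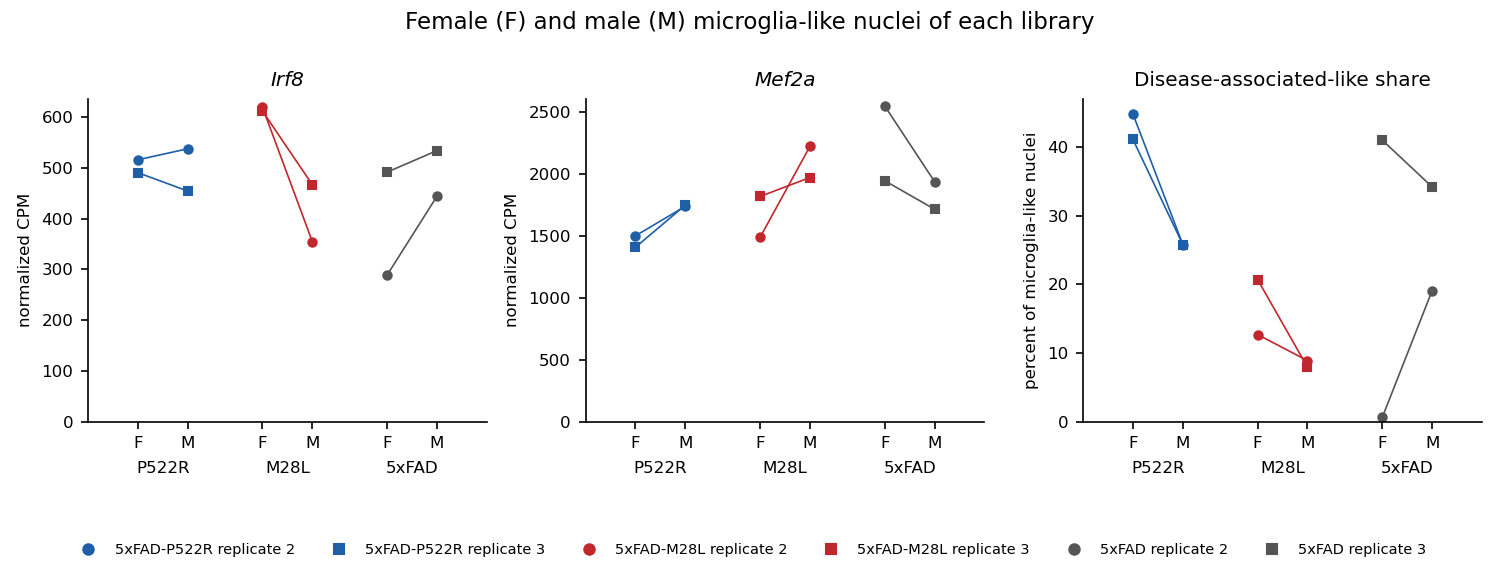
TMM-normalized CPM of Irf8 and Mef2a, and the percentage of disease-associated-like nuclei, in female and male microglia-like nuclei, with a line joining the sexes of each library. For Irf8, female nuclei were above male nuclei in both 5xFAD-M28L libraries (619 against 355 CPM and 612 against 467 CPM) and below them in both 5xFAD libraries; for Mef2a the lines of these 4 libraries ran the other way, and the share was higher in female nuclei of each library but 5xFAD replicate 2.

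Mef2a mirrored this without passing the test. It had 1487 and 1818 CPM in female and 2222 and 1970 CPM in male nuclei of 5xFAD-M28L, against 2548 and 1945 CPM in female and 1938 and 1715 CPM in male nuclei of 5xFAD. The difference was -0.64 (SE 0.173, edgeR adjusted p 0.106), and it ran from -0.88 without 5xFAD-M28L replicate 3 (adjusted p 0.119) to -0.42 without 5xFAD-M28L replicate 2 (adjusted p 0.642). Without 5xFAD replicate 2 it was -0.55 (adjusted p 0.0614), and without 5xFAD replicate 3, the only library whose loss gave a call, -0.76 (adjusted p 0.000654).

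Family relatives of the factors were looked at next, by lists that were chosen with earlier results of these data known. Of 31 relatives 24 passed the filter, and none passed the test in any contrast, as was true of all 13813 genes. Their median difference for P522R against M28L was -0.15, the same as that of the factors, with 8 above and 16 below 0, while 50.2% of all genes were above 0. Counts of list genes in whole microglia, here and below, include the oligodendrocyte-led cluster, and its part in them was not tested. The ETS factor Fli1 averaged 991 CPM in 5xFAD-P522R, 1160 CPM in 5xFAD-M28L and 1043 CPM in 5xFAD, and Mef2c, the other MEF2 factor known in microglia, 1816, 2026 and 2113 CPM. Tfeb, a close relative of MITF, averaged 138 CPM in 5xFAD-P522R, 123 CPM in 5xFAD-M28L and 109 CPM in 5xFAD, with a difference of 0.34 for P522R against 5xFAD (SE 0.097, adjusted p 0.328). Of 25 other macrophage transcription factors 22 passed the filter and none the test, with 6 above and 16 below 0 for P522R against M28L (median -0.15). Rel, an NF-κB subunit, averaged 93.7 ± 2.15 CPM in 5xFAD-P522R, 118 ± 11.8 CPM in 5xFAD-M28L and 122 ± 16.2 CPM in 5xFAD.

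Genes described as targets, osteoclast genes or lysosome genes of MITF and its relatives differed more in size, again without a call in whole microglia. Whether MITF acts on them here was not tested. Of 15 such genes 13 passed the filter, and for P522R against M28L 12 were above and 1 below 0, with a median of 0.27, while 50.2% of all genes were above 0. Gpnmb, a lysosomal glycoprotein of the disease-associated state, averaged 49.8 ± 29.8 CPM in 5xFAD-P522R, 2.29 ± 0.775 CPM in 5xFAD-M28L and 21.0 ± 14.4 CPM in 5xFAD, a difference of 4.38 for P522R against M28L (SE 0.706, edgeR adjusted p 0.193). Atp6v0d2, a subunit of the lysosomal proton pump, averaged 27.3 ± 5.43, 4.21 ± 0.728 and 17.2 ± 7.29 CPM, a difference of 2.67 (SE 0.353, adjusted p 0.193). Dcstamp, a fusion protein of osteoclasts, averaged 19.4 ± 0.872, 1.80 ± 0.394 and 12.6 ± 9.63 CPM. In homeostatic-like nuclei 9 of the list passed the filter, with 4 above and 5 below 0 and a median of -0.03. Gpnmb and Atp6v0d2 were also among the first 10 genes of the disease-associated-like cluster, and the part of the state's share was not tested in whole microglia. Mitf itself differed by -0.15 there.

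Within disease-associated-like nuclei alone 3 of the 12 genes of this list that passed the filter were called for P522R against M28L, all higher. Of all genes 0.849% were called, as given above. The same 3 were called lower for M28L against 5xFAD, beside 0.888% of all genes. Gpnmb averaged 134 ± 78.5 CPM in 5xFAD-P522R, 11.7 ± 0.340 CPM in 5xFAD-M28L and 80.04 ± 7.87 CPM in 5xFAD, a difference of 3.46 for P522R against M28L (SE 0.380, edgeR adjusted p 1.79e-07). Dcstamp averaged 47.0 ± 0.0533 CPM in 5xFAD-P522R, 11.01 ± 3.31 CPM in 5xFAD-M28L and 42.7 ± 1.35 CPM in 5xFAD, a difference of 2.16 (SE 0.344, adjusted p 0.000196). For Atp6v0d2 the difference was 1.41 (SE 0.275, adjusted p 0.00347). In all 3 genes the M28L libraries were the low ones. For P522R against 5xFAD none of the 3 passed. The state was drawn from expression that includes these genes, and Gpnmb and Atp6v0d2 are among the markers that named it. Fits with a library left out are not given for these nuclei. Sexed nuclei of the state were 3 female and 103 male in 5xFAD replicate 2, and 52 female and 39 male in 5xFAD-M28L replicate 2.

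Genes described as targets of PU.1 and IRF8 went the other way. All 12 passed the filter and none the test, with 3 above and 9 below 0 for P522R against M28L and a median of -0.23. Csf1r, Cx3cr1, P2ry12 and Tmem119 of this list are also markers of the homeostatic-like state, and Trem2 is one of the disease-associated-like state. The homeostatic-like share was lower in 5xFAD-P522R than in 5xFAD-M28L libraries. Neither its part in these counts nor that of the oligodendrocyte-led cluster was tested. Csf1r, the receptor that microglia need to survive, averaged 616 ± 47.1 CPM in 5xFAD-P522R, 818 ± 14.3 CPM in 5xFAD-M28L and 699 ± 53.5 CPM in 5xFAD, a difference of -0.41 (SE 0.099, edgeR adjusted p 0.193). Cybb, the catalytic subunit of the phagocyte NADPH oxidase, stood apart from the list, and was called in disease-associated-like nuclei (1.75 there, SE 0.357, adjusted p 0.00539), with 22.2 ± 4.81, 5.95 ± 0.127 and 16.3 ± 9.18 CPM, a difference of 1.87 (SE 0.401, adjusted p 0.193). Tmem119 averaged 46.7 ± 0.282, 73.3 ± 3.20 and 62.8 ± 24.0 CPM.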

How the data were processed

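The deposited files hold raw counts of UMIs by gene and nucleus for 6 libraries, which the authors had not normalized. Cell Ranger 6.1.2 and mm10 are named per the submitters' processing notes, and per the file headers 5xFAD-P522R replicate 3 has Cell Ranger 5.0.1 and the other 5 libraries 6.1.2. Per the labels' protocols 3′ v3 chemistry was used, and whether intronic reads were counted is not given in the sources used here. The 9 genes and all lists were chosen with earlier results of these data known.

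A nucleus needed 500 UMIs, 300 genes and no more than 5% mitochondrial UMIs, which 62651 of 62687 barcodes met. Doublets were called per library with Scrublet in scanpy 1.11.5 (Python 3.11.15) at an expected rate of 0.08. The automatic threshold marked under 0.5% of nuclei in several libraries, so 1 common threshold (0.295) was used, which removed 2961 (4.28% to 5.52% per library). Nuclei were clustered on 2000 variable genes, 30 principal components and 20 neighbours (leidenalg 0.10.2, igraph 0.11.9, resolution 1), and microglia again on 1000 genes, 15 components and resolution 0.5, without the 9 genes. A name needed at least 3 markers and a share of 0.4 of a type's markers (0.25 for neurons, 0.3 for states, at a log2 fold of 0.58). These bounds were chosen with the clusters in view.

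UMIs were summed per library and population with at least 20 nuclei in every library. The edgeR 4.0.16 quasi-likelihood F-test (R 4.3.3, two-sided) used TMM, filterByExpr with a minimum count of 10 and all 6 libraries in 1 fit, with Benjamini-Hochberg adjustment over all genes and a threshold of 0.05. Sexes were summed separately, by Xist and Y-linked transcripts, with the library as a block. The fits were tried on simulated counts with a fixed spread shared by all genes. As the square root of edgeR's common dispersion, the data gave 0.145 in microglia-like and 0.242 in border macrophage-like nuclei, both above that spread. Homeostatic-like nuclei, at 0.0999, were below it. No result here rests on the simulation. Contrasts share libraries and are not independent.

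Named beside the 9 genes are the 3 genes most like each, up to 4 genes per contrast of each list by the smallest unadjusted p, and relatives by mean level. DESeq2 1.42.0, RLE size factors, no filter, fits of 4 libraries, a replicate term, at least 1000 UMIs, doublets kept, each sex alone, the 9 genes allowed in the clustering and each library left out were tried.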

Additional observations from a re-analysis of the deposited data

Results flagged for a closer look

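The effect of M28L against 5xFAD on Irf8 differed between the sexes in microglia-like nuclei, by a test of that difference itself. The difference of log2 differences, female over male, was 0.95 (SE 0.203, edgeR quasi-likelihood adjusted p 0.0383). Irf8 had 619 and 612 CPM in female and 355 and 467 CPM in male nuclei of 5xFAD-M28L, against 289 and 492 CPM in female and 444 and 534 CPM in male nuclei of 5xFAD. Over the alternatives the value ranged from 0.69 to 1.19, always above 0, and the adjusted p from 5.41e-06 to 0.536. It rests on 2 libraries per group, and it lost its call with DESeq2 and with any 1 library of 5xFAD-M28L or 5xFAD-P522R left out.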

How the results depend on the processing

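None of the values that changed direction was past the threshold before or after, and the causes were not tested. With male nuclei alone, microglial log2 differences for M28L against 5xFAD were -0.25 (Irf8), -0.028 (Mitf) and 0.20 (Mef2a), and homeostatic-like ones -0.093 (Irf8), -0.10 (Sall1), -0.026 (Mitf), -0.032 (Runx1) and 0.024 (Mef2a). For P522R against 5xFAD they were 0.073 (Spi1) in microglia and -0.051 (Ikzf1) and 0.069 (Mef2a) in homeostatic-like nuclei. For P522R against M28L they were 0.022 (Spi1), 0.27 (Irf8) and 0.017 (Bhlhe41) in microglia and 0.31 (Irf8) and 0.045 (Mef2a) in homeostatic-like nuclei. With female nuclei alone, P522R against 5xFAD gave 0.20 (Mitf) and 0.12 (Runx1) in microglia and 0.085 (Runx1) in homeostatic-like nuclei. With the 9 genes allowed in the clustering, Irf8 for P522R against M28L was 0.018 in microglia and 0.019 in homeostatic-like nuclei. Chosen after seeing the data, microglia without the cluster led by oligodendrocyte transcripts gave 0.021 (Spi1) and 0.033 (Mitf) for P522R against 5xFAD and 0.061 (Spi1), 0.077 (Irf8) and 0.015 (Bhlhe41) for P522R against M28L. Disease-associated-like nuclei alone gave -0.030 (Runx1) and 0.029 (Mef2a) for M28L against 5xFAD and 0.13 (Spi1) for P522R against 5xFAD.

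With 1 library left out in turn, these values crossed 0 and ran as follows. In microglia, M28L against 5xFAD gave -0.18 to 0.067 for Mef2a and -0.048 to 0.44 for Sall1. P522R against 5xFAD gave -0.19 to 0.022 for Spi1, -0.042 to 0.33 for Irf8 and -0.11 to 0.050 for Mitf, and P522R against M28L gave -0.17 to 0.091 for Irf8. In homeostatic-like nuclei, Sall1 ran from -0.084 to 0.16 for M28L against 5xFAD and from -0.078 to 0.038 for P522R against M28L, where Irf8 ran from -0.15 to 0.15. P522R against 5xFAD gave -0.016 to 0.074 for Ikzf1, -0.12 to 0.064 for Bhlhe41 and -0.14 to 0.036 for Runx1.

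Calls of factors moved in few settings. Without a filter on low counts 1 factor was called in microglia for P522R against 5xFAD (Mef2a, -0.37), 4 for P522R against M28L (Bhlhe40, Ikzf1, Sall1 and Mef2a), 1 in homeostatic-like nuclei for P522R against 5xFAD (Mef2a) and 2 for the difference between sexes (Irf8 and Mef2a), where DESeq2 called 0. With female nuclei alone 1 was called in homeostatic-like nuclei for M28L against 5xFAD (Irf8, 0.65). With 1 library left out the count ran from 0 to 1 in microglia for P522R against M28L, and from 0 (without 5xFAD-M28L replicate 2, among others) to 9 (without 5xFAD replicate 3) calls over the 3 contrasts for the difference between sexes; it was 0 for each other comparison. Counts of all genes moved more: with male nuclei alone 450, 248 and 30 genes were called in microglia for P522R against M28L, P522R against 5xFAD and M28L against 5xFAD.

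With a replicate block, 1 factor was called in homeostatic-like nuclei for P522R against 5xFAD (Mef2a, -0.25), and no other call of a factor changed. The block moved the genes called in homeostatic-like nuclei to 72, 277 and 141 in the same order of contrasts. Deviations of same-numbered libraries correlated at 0.202 (P522R and M28L), 0.156 (P522R and 5xFAD) and 0.374 (M28L and 5xFAD) over 10478 genes. With 2 numbers and no label that ties them, the libraries were not treated as paired.

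Keeping called doublets was not run for homeostatic-like and border macrophage-like nuclei, nor single sexes for border macrophage-like nuclei, which fell under 20 nuclei in a library. Values of border macrophage-like nuclei rest on 29 to 91 nuclei per library. A fit that leaves out a library leaves 1 in its group, assumed to vary like the others. No such fit is given for disease-associated-like nuclei.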
